A study of Caenorhabditis elegans with 4 samples.

Results

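Chromosome II carried 927 of the 4971 binding sites of DVE-1 that the study's combined peak list holds, 18.6% of the list. The members are all peaks of that list whose chromosome is II, whatever their score. The chromosome was chosen for description with earlier results of these data known. They come from chromatin immunoprecipitation followed by sequencing (ChIP-seq) of Caenorhabditis elegans, in which DNA crosslinked to a protein is recovered with an antibody and the places where its reads pile up are called as peaks. All 4 samples, 2 ChIP and 2 input samples numbered 1 and 2, were late embryos of strain OP398, labelled hermaphrodite and grown at 20 °C. The worms carry unc-119(ed3) on chromosome III and the transgene wgIs398, in which dve-1 is fused at its C terminus to TY1, EGFP and FLAG tags and which also holds unc-119(+). The transgene entered the genome by bombardment, and no label states its copy number. A strain without the tag, or one lacking DVE-1, was not analysed here. What is mapped is therefore the tagged protein, precipitated with anti-GFP antibodies after fixation in 2% formaldehyde, in whole embryos in which cell types are not told apart. Nothing in the labels says whether replicates 1 and 2 came from separate cultures.

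DVE-1 has a homeodomain and belongs to the SATB-like proteins, nuclear factors that bind DNA and are known for organising chromatin. In C. elegans it is best known for the mitochondrial unfolded protein response, in which it gathers in the nucleus with UBL-5 and helps to switch on mitochondrial chaperone genes. Autosomes of this worm have no single centromere; each is divided by its recombination rate into a gene-dense centre, where crossing over is rare, and flanking arms, where crossing over is frequent, repeats are more common and histone H3 carries more lysine methylation of the silent kind. Positions are on WormBase build WS180. The left domain of II was taken as bases 1 to 4879000, the centre as 4879001 to 12020000 and the right domain as everything beyond, up to 15279307, the last base of any peak on II. Each peak was placed by its midpoint. The boundaries were not derived from these peaks, and moving both by 100 kb, outward or inward, changed no call given below for the full combined list. The replicate lists and smaller sets of peaks were not tested with moved boundaries. The chromosome tips are inside the left and right domains. Genes and sequences at the peaks were not analysed here, because no genome or annotation of this build was used.

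In the combined list, DVE-1 peaks were sparse in the left domain of II and about equally dense in the centre and the right domain. The left domain held 213 peaks, or 43.7 per Mb, which is 0.72 times the number proportional to its length (exact binomial test, adjusted p = 5.71e-09 over the 3 domains). The centre held 486 peaks, or 68.1 per Mb, 1.12 times its proportional number (exact binomial, adjusted p = 0.000815). The right domain held 228 peaks, or 69.95 per Mb, 1.15 times its proportional number (exact binomial, adjusted p = 0.0179). The right domain had 1.60 times the density of the left (95% interval 1.32 to 1.94; 2-sided exact binomial p = 8.32e-07). That the right part of II has more peaks than the left was known when the domains and tests were chosen, so these tests describe that difference and are no independent evidence of it.

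The peaks called in each replicate alone had the same order of domains. In replicate 1 the left domain held 98 peaks (20.1 per Mb), the centre 189 (26.5 per Mb) and the right 97 (29.8 per Mb). In replicate 2 these were 105 (21.5 per Mb), 224 (31.4 per Mb) and 117 (35.9 per Mb). Density was lowest on the left and highest on the right in both. The ratio of right to left density was 1.48 in replicate 1 (1.11 to 1.98; exact binomial p = 0.00673). In replicate 2 the ratio was 1.67 (1.27 to 2.19), with an exact binomial p of 0.000155. The left domain passed the test in both replicates, at 0.799 and 0.737 times its proportional number (exact binomial, adjusted p = 0.0217 and 0.000328). The right domain passed it in replicate 2, at 1.23 times (exact binomial, adjusted p = 0.0194), and not in replicate 1, at 1.18 times (exact binomial, adjusted p = 0.0927). The centre passed it in neither, at 1.05 and 1.07 times (exact binomial, adjusted p = 0.332 and 0.142).

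The tests take peaks as independent, and they are not, since peaks stood in groups. With peaks no more than 5000 bp apart counted once, the left domain was at 0.841 times its proportional number (exact binomial, adjusted p = 0.0296) and the right at 1.19 times (exact binomial, adjusted p = 0.0306), but the centre was at 1.02 times and lost its call (exact binomial, adjusted p = 0.673).

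**Figure D1:**
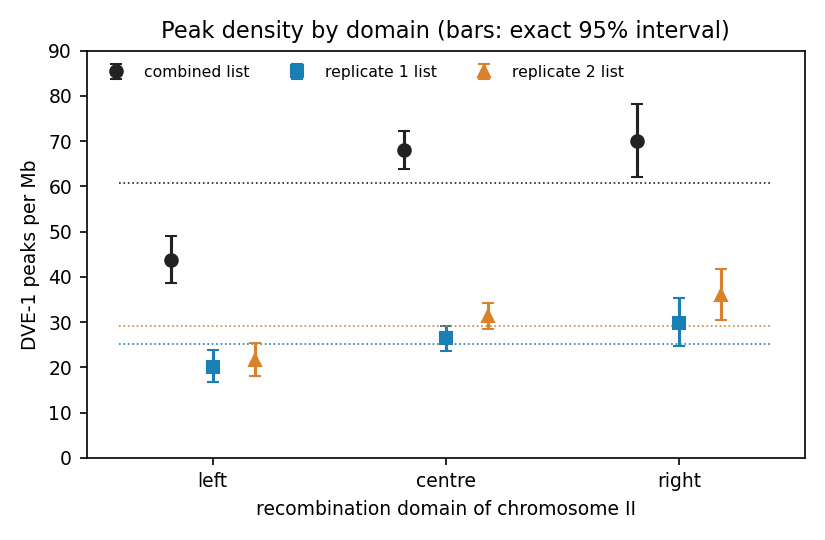
Peaks per Mb in the left, centre and right domain of chromosome II for the combined list and both replicate lists; points are densities, bars exact 95% binomial intervals, and dotted lines each list's density over the whole chromosome. The left domain lies below its list's dotted line in all 3 lists, at 43.7 per Mb in the combined list against 68.1 in the centre and 69.95 on the right.

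Along the chromosome, in windows of 1 Mb, combined peak numbers were low up to the left boundary and higher in the window after it. In windows of 100 kb, those from 4900001 to 5300000 held 7, 6, 5 and 6 combined peaks, and the next held 20. The 5 windows of 1 Mb that make up the left end held 52, 29, 52, 44 and 44 combined peaks. The next, from 5 to 6 Mb, held 83, the highest of any in the combined list, and 42 of these were in neither replicate. The window from 6 to 7 Mb held 78 combined peaks. It was the highest in both replicates, with 36 and 44 peaks against 30 and 36 from 5 to 6 Mb. The window from 7 to 8 Mb, within the centre domain and at the middle of the chromosome, fell back to 45, close to the windows of the left domain. The 7 whole windows to its right held 65, 68, 64, 74, 60, 72 and 73. In the replicates this window held 17 peaks of replicate 1 and 23 of replicate 2, against 36 and 44 in the window before it. It was the lowest of the whole windows within the centre in both, but others there were close, with 20 and 29 from 9 to 10 Mb and 22 and 24 from 10 to 11 Mb. The low window from 1 to 2 Mb held 15 peaks in each replicate. The contrast across the boundary was less clear in the replicates. From 2 to 3 Mb, on the left, they held 27 and 29 peaks, the same as from 8 to 9 Mb in the centre. Across the 16 windows, the numbers of peaks in the replicates were correlated with a rho of 0.931 (Spearman) and an r of 0.946 (Pearson); the last window is shorter and all windows share the same libraries, so this is a description.

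**Figure D2:**
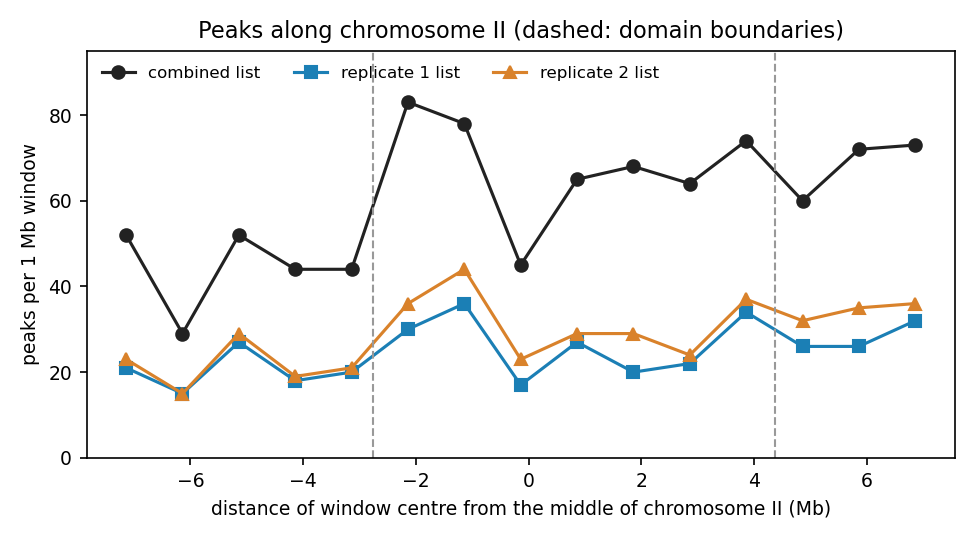
Number of peaks in each of the 15 whole windows of 1 Mb along chromosome II, by distance of the window's centre from the middle of the chromosome, for the combined list and both replicate lists; dashed lines are the domain boundaries. The combined count stays at 52 or below left of the first boundary, reaches 83 just right of it, and dips to 45 at the middle of the chromosome.

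Dense stretches lay in the centre and at the right end. Of 153 windows of 100 kb, 26 held 10 or more combined peaks, which were 5 of 49 windows in the left domain, 15 of 71 in the centre and 6 of 33 on the right. The 5 densest held 83 peaks together, 8.95% of those on II in 3.27% of its length. On this grid the densest, 5300001–5400000, held 20 combined peaks, 10 of replicate 1 and 11 of replicate 2. With the grid shifted by 50 kb the densest was 6750001–6850000, with 17. The window 6800001–6900000 held 18 combined peaks, 9 of replicate 1 and 13 of replicate 2, and 14400001–14500000 held 17, 7 and 9 in the same order. The last window of the chromosome, 15200001–15279307, is only 79307 bp long and held 15, 7 and 10, so the tip of the right arm was among the places with the most called peaks. The window 6300001–6400000 held 13, 11 and 10. It was the only one of the 5 in which every combined peak was found in at least 1 replicate, 8 of them in both; 3 other windows also held 13.

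Within these windows the peaks stood in close runs. The gap between neighbouring combined peaks had a median of 8207.5 bp, and 365 of 926 gaps (39.4%, 95% interval 36.3 to 42.6) were 5000 bp or less. Such gaps made up 44.9% of those in the centre, 37.3% on the right and 29.1% on the left. Chained at that distance, 545 peaks (58.8%) fell into 180 runs of 2 or more, and 382 stood alone. The longest run had 15 peaks in 31736 bp, at 6821768–6853503 in the centre; 6 of its peaks were in both replicates, 5 in neither, and its best rank was 459. The next had 12 peaks in 21124 bp, at 5320090–5341213. A run of 10 peaks followed at 10538055–10563662, also in the centre, and its best peak had rank 36. Of these 3 runs, it was the only one to hold any of the 15 best sites of the chromosome.

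In the combined list, the left domain also held the emptiest stretches. All 3 windows of 100 kb with no combined peak were there, at 1700001–1800000, 2000001–2100000 and 3600001–3700000, and no replicate peak had its midpoint in them. The longest stretch without a combined peak ran over 213256 bp, from 3567948 to 3781203, and no replicate peak had its midpoint in it. It was followed by 156204 bp at 1663756–1819959, 140755 bp at 6056158–6196912, 139466 bp at 1852026–1991491 and 134765 bp at 738350–873114. Of these 5, only the one at 6056158–6196912 lay in the centre, and it alone held the midpoint of a replicate peak, 1 in replicate 2. Gaps longer than 100 kb numbered 10 of 213 in the left domain, 2 of 485 in the centre and 1 of 228 on the right. In the shorter replicate lists the longer centre had the most such gaps by count. Replicate 1 had 13 of 98, 18 of 189 and 8 of 96, and replicate 2 had 13 of 105, 17 of 224 and 5 of 116. As a share of a domain's gaps, they were most common on the left in each list. The longest gap in each replicate was also on the left, 343592 bp at 1852024–2195615 in replicate 1 and 280170 bp at 1820238–2100407 in replicate 2. The second longest was in the centre in replicate 1 (282888 bp) and on the left in replicate 2 (260610 bp). Empty windows of 100 kb made up 16.3% on the left and 15.5% in the centre in replicate 1, and 12.2% and 9.86% in replicate 2.

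Well-ranked sites occurred in all 3 domains. Peaks were ranked by the q-value that the authors' caller gave, and −log10 q is used here so that a higher value is a better score; it is the authors' own value for the peak and is not a measure of occupancy. Of the 15 best-ranked peaks of II, 4 lay in the left domain, 8 in the centre and 3 on the right. All 15 were found in both replicates, and all were among the 86 best of the whole combined list. In replicate 1 12 of the 15, and in replicate 2 13, were among the 100 best of all chromosomes. The score was higher in replicate 2 than in replicate 1 at 14 of the 15 and highest in the combined list at each.

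In the left domain, the best site of the whole chromosome lay at 2525359–2526202, a peak of 844 bp. Its −log10 q was 117 in the combined list, 48.7 in replicate 1 and 83.0 in replicate 2. It was rank 3 of all chromosomes in each of the 3 lists. Next came 1604986–1605632, of 647 bp, with 41.9 in the combined list, 18.6 in replicate 1 and 27.3 in replicate 2. This site stood far from other peaks, 102.72 kb from its left neighbour and 57.9 kb from its right one. The site at 2632060–2632679 scored 39.3, 13.0 and 33.0 in the same order, and was rank 138 in replicate 1 but rank 30 in replicate 2. The site at 3395003–3395614 scored 38.1, 20.8 and 19.3. It went the other way, at rank 39 in replicate 1 and 112 in replicate 2, and was the only one of the 15 to score higher in replicate 1. The fifth of the domain, 2859022–2860053, scored 34.2, 15.2 and 19.2. The 5 best on the left were between 612 and 1032 bp wide, and each was in both replicates.

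In the centre, the best site was broad. It lay at 11633755–11636160, over 2406 bp, with a −log10 q of 82.9 in the combined list, 21.0 in replicate 1 and 34.4 in replicate 2 for the better of the 2 peaks that each replicate listed within it. Only 490 bp to its right lay another well-ranked peak of 1031 bp, at 11636651–11637681, the 20th of II. A compact site followed, at 5844544–5845221, with 678 bp and scores of 59.6, 30.4 and 38.9. In the replicates this compact site ranked 15 and 14, ahead of the broad one at 38 and 25, whereas the combined list had them at 23 and 10. The order of these sites thus differed between the combined list and both replicates. The next were 5660959–5662314, with 1356 bp and scores of 56.3, 13.1 and 21.5, and 10547740–10550394, with 2655 bp and scores of 54.97, 15.04 and 24.96. Here too the combined rank, 33 and 36, was better than the replicate ranks, which were 136 and 87 for the first and 95 and 62 for the second. The fifth, 5543344–5544027, had 684 bp, scores of 44.5, 17.5 and 24.6, and ranks of 59, 58 and 67. Of the 15 best sites, 5 were wider than 1000 bp, and all 5 of these lay in the centre.

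In the right domain, the best sites were compact, between 628 and 775 bp. The site at 12169301–12170075, not far beyond the boundary of the centre, scored 88.6 in the combined list, 38.9 in replicate 1 and 56.5 in replicate 2, with ranks of 7, 8 and 7. The site at 14804203–14804830 scored 62.6, 28.2 and 34.6, with ranks of 20, 19 and 24. Both kept nearly the same place in every list. The site at 13780467–13781237 scored 40.2, 15.97 and 24.96, that at 12824183–12824826 scored 37.9, 15.9 and 23.6, and that at 13334917–13335688 scored 36.3, 11.6 and 26.1. Each of the 5 was a single peak in both replicates.

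**Figure D3:**
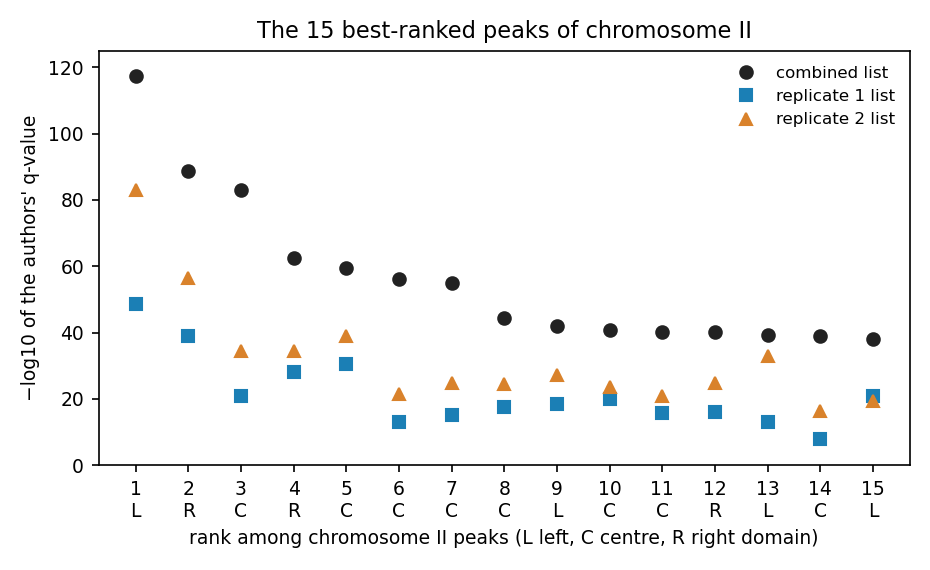
Score (−log10 of the authors' q-value) of the 15 best-ranked combined peaks of chromosome II in the combined list and of the best overlapping peak in each replicate, with the domain of each site as a letter. The combined score is the highest at all 15, and replicate 2 lies above replicate 1 at 14 of them.

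Among the 500 best peaks of the combined list, the right domain was the best represented for its number of peaks. It had 39 of its 228 peaks in that class (17.1%, 95% interval 12.5 to 22.6), against 43 of 486 in the centre (8.85%, 6.48 to 11.7) and 20 of 213 on the left (9.39%, 5.83 to 14.1). The share was also highest on the right in the replicates, where the 500 best are a larger part of a shorter list: 33.0% against 28.6% in the centre and 19.4% on the left in replicate 1, and 30.8% against 20.1% and 24.8% in replicate 2. The intervals of the domains overlapped in both replicates. Median ranks were closer, at 2262 on the left, 2420 in the centre and 2118.5 on the right of 4971. The excess on the right was not seen at every rank. Among the 100 best the shares were close, with 4 of 213 peaks on the left, 9 of 486 in the centre and 5 of 228 on the right. At ranks 501 to 1000 the right had the smallest share. It had 20 of 228 there, against 59 of 486 in the centre and 23 of 213 on the left. No test was run on these shares.

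Peaks on II were short. Their median width was 311 bp in the combined list (quartiles 219.5 and 458), 300 bp in replicate 1 and 335 bp in replicate 2. Together the combined peaks covered 351686 bp, or 2.30% of the chromosome. By domain the medians were 300 bp on the left, 305.5 bp in the centre and 336 bp on the right. The right domain had the widest median in each list, with 337 bp in replicate 1 and 368 bp in replicate 2, against 275.5 and 308 bp on the left. Peaks covered 1.48% of the left domain, 2.65% of the centre and 2.76% of the right domain.

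Broad peaks made up similar shares in the centre and on the right, and a smaller share on the left. Of 51 combined peaks of 800 bp or more, 31 lay in the centre (6.38% of its peaks, 95% interval 4.37 to 8.93), 14 on the right (6.14%, 3.40 to 10.1) and 6 on the left (2.82%, 1.04 to 6.03); the intervals overlap and no test was run. Of the 51, 37 were found in both replicates and 4 in neither. The widest was the site at 10547740–10550394 described above, with 2655 bp, followed by 9059811–9062218 with 2408 bp, the site at 11633755–11636160 with 2406 bp, 9160083–9162430 with 2348 bp and 14406110–14408184 with 2075 bp. The first 4 were in both replicates. The fifth was only in replicate 2, as a peak of 933 bp at rank 976. The replicates divided or narrowed these sites. The peak at 9059811–9062218 was 2 peaks in each, the better of them 520 bp wide in replicate 1 and 785 bp in replicate 2. In all, 11 combined peaks of II, between 880 and 2655 bp wide, covered more than 1 peak of a replicate. No source used here says how the combined list was made, and whether these are joined neighbours or single broad sites cannot be told apart.

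**Figure D4:**
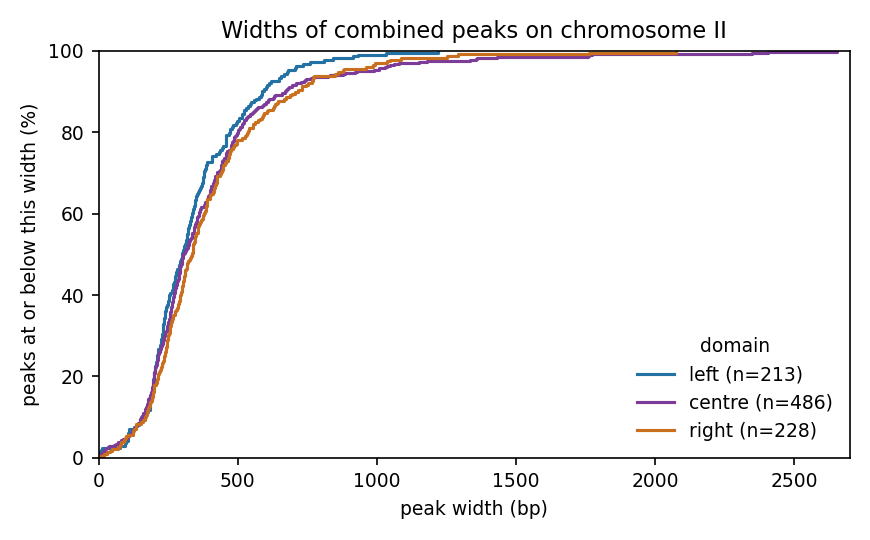
Cumulative share of combined peaks at or below a given width, in bp, for the left, centre and right domain of chromosome II. The medians are 300, 305.5 and 336 bp; the curve of the left domain ends at 1221 bp, while the centre reaches 2655 bp and the right 2075 bp.

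Support for the members was then read from the replicate lists, a peak being found in a replicate when at least 1 bp overlapped. Of the 927 peaks, 283 (30.5%, 95% interval 27.6 to 33.6) were found in both replicates, against 25.4% of all combined peaks. A further 87 (9.39%) were found in replicate 1 only, against 7.54% of all, and 147 (15.9%) in replicate 2 only, against 15.6% of all. The remaining 410 (44.2%, 41.0 to 47.5) were in neither, against 51.5% of all combined peaks. The combined list is not independent of the replicates, so these shares carry no test.

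Support was lowest in the dense centre. There 136 of 486 peaks were in both replicates (28.0%, 24.0 to 32.2) and 232 in neither (47.7%, 43.2 to 52.3). On the left 70 of 213 were in both (32.9%, 26.6 to 39.6) and 83 in neither (39.0%, 32.4 to 45.9), and on the right 77 of 228 were in both (33.8%, 27.7 to 40.3) and 95 in neither (41.7%, 35.2 to 48.4). The intervals overlap. Among the 283 peaks in both replicates alone, the centre was at 1.03 times its proportional number (exact binomial, adjusted p = 0.677), so its excess was not detectable in the best-supported peaks. The left domain was at 0.775 times (exact binomial, adjusted p = 0.0267) and the right at 1.28 times (exact binomial, adjusted p = 0.0299). Their densities were 14.3 per Mb on the left, 19.0 in the centre and 23.6 on the right.

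Support fell steeply with rank. All 18 peaks of II among the 100 best of the combined list were in both replicates, which allows a share down to 81.5%, as were all of the 100 best over all chromosomes. Of the 84 at ranks 101 to 500, 81 were in both, or 96.4%, against 96.5% on all chromosomes. At ranks 501 to 1000 it was 87 of 102, or 85.3%, against 80.4% on all chromosomes. At ranks 1001 to 2000 it was 80 of 199, or 40.2% (33.3 to 47.4), against 31.5% on all chromosomes. Beyond rank 3000, 1 of 333 was in both, against 6 of 1971 on all chromosomes. The first peak of II not found in both was the 43rd of the chromosome, at 9283670–9285430 in the centre, with 1761 bp and rank 239; replicate 2 listed an 846 bp peak inside it and replicate 1 none. The best-ranked peak in neither replicate was 6491642–6492119 in the centre, at rank 772. On the right it was 14357691–14358167, at rank 1007, and on the left 2565061–2565275, at rank 1333. Peaks in neither replicate were also narrower, with a median width of 244.5 bp against 447 bp for those in both.

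**Figure D5:**
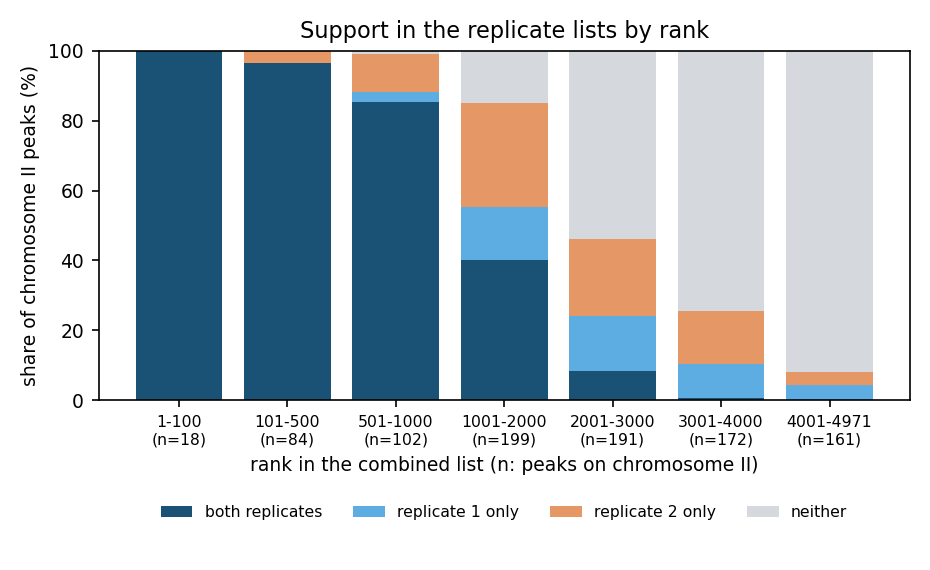
Share of chromosome II peaks found in both replicates, in replicate 1 only, in replicate 2 only or in neither, by class of rank in the combined list, with the number of peaks under each bar. The share in both falls from 100% at ranks 1 to 100 to 40.2% at ranks 1001 to 2000, and at ranks 4001 to 4971 it is 0 of 161, which allows up to 2.27%.

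The replicates were also compared with each other on II. Of 384 peaks of replicate 1, 286 (74.5%, 69.8 to 78.8) overlapped a peak of replicate 2, against 75.3% on all chromosomes. Of 446 peaks of replicate 2, 284 (63.7%, 59.0 to 68.1) overlapped one of replicate 1, against 60.6% on all chromosomes. Both shares are near those of the whole lists. By domain the share of replicate 1 peaks found in replicate 2 was 71.4% on the left, 73.5% in the centre and 79.4% on the right. The share of replicate 2 peaks found in replicate 1 was 66.7% on the left, 61.2% in the centre and 65.8% on the right. The domains were thus ordered differently in the replicates, and their intervals overlapped in each. Over 284 pairs of best mutual overlap, the Spearman rho was 0.625 for −log10 q and 0.702 for width. The peak was wider in replicate 2 in 182 of the 284 pairs, with medians of 365.5 and 324 bp. Pairs are not independent replicates, and the correlations are a description.

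Few replicate peaks on II were missing from the combined list. In replicate 1 there were 8 of 384 (2.08%), against 2.75% on all chromosomes, and in replicate 2 9 of 446 (2.02%), against 2.47%. None of the 17 overlapped a peak of the other replicate. The best-ranked in replicate 1 were 14062963–14063234 at rank 886, 5421096–5421363 at rank 1054 and 3373130–3373475 at rank 1439. Those in replicate 2 were 11619051–11619530 at rank 1446, 12344832–12345443 at rank 1781 and 14793024–14793311 at rank 1841. All were thus in the lower part of their lists.

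Set beside the other chromosomes, II had the densest window but not the emptiest stretches. The variance of the number of combined peaks per 100 kb window was 2.24 times the mean on II and between 1.42 and 1.83 times on I, III, IV, V and X. On the fixed grid the densest windows of the other chromosomes held between 9 and 16 peaks, and no shifted grid was used there. The densest window of II held 20, or 17 with the grid shifted by 50 kb. By contrast, 1.96% of its windows were empty, against 0% on III, 1.99% on I, 2.86% on IV, 7.62% on V and 11.2% on X. Its longest gap of 213256 bp was shorter than those on IV, V and X, of 239536, 360127 and 234083 bp. It was longer than those on I and III, of 201177 and 103378 bp. Gaps of 5000 bp or less made up 39.4% on II and 42.4% on III. The share of its peaks in both replicates, 30.5%, compared with 27.9% on IV (24.8 to 31.1) and between 19.8% and 26.1% on the rest. Its share in neither, 44.2%, was the lowest, with 50.2% to 58.9% elsewhere. In median width, 311 bp, II was close to V at 313 bp and IV at 322 bp, and among the 500 best it held 11.0% of its peaks (9.06 to 13.2), within the range of 7.43% to 12.6% elsewhere. No test of these differences was run, since peaks of 1 list are not replicates. The sequencing depth is unknown, as the lists give no reads, and intervals cover counting error only.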

How the data were processed

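Peaks were analysed from 3 deposited lists, 1 for each ChIP replicate and 1 combined list for the series. Per the file headers, coordinates are on WormBase WS180, 1-based, and per the deposited files the caller was PeakSeq. Each peak's only score is the q-value that the authors deposited, converted here to −log10 q; ties were ordered by position. Not given in the sources used here are the aligner, the q-value limit, the use of the input and the making of the combined list. Input values were not analysed here.

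Peak numbers per domain were compared with domain lengths by exact binomial tests (2-sided), adjusted after Benjamini and Hochberg over the 3 domains of a list, with a threshold of 0.05. The chromosome was taken to end at the last peak end of the 3 lists. Shares have 95% Clopper-Pearson intervals. Windows were counted by peak midpoint on a grid from base 1. Overlaps were checked against bedtools 2.31.1, and the counting was tested on simulated data. Named peaks are the 15 best-ranked, the 5 best of each domain, the 5 widest, the best in neither replicate per domain and the 3 best of each replicate missing from the combined list; the 5 densest windows and 5 longest empty stretches are also named. Neighbours, runs and the first peak not in both replicates were chosen after their values were seen. The members, domains and tests were chosen with earlier results of these data known, among them that II has more peaks in its right than in its left part, which is no independent support. The tools were scipy 1.17.1 for the tests, pandas 2.3.3 and numpy 2.4.6 for the tables and matplotlib 3.10.9 for the figures, under Python 3.11.15.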

Additional observations from a re-analysis of the deposited data

How the results depend on the processing

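To leave out a replicate, the other replicate's list was used instead of the combined one, which was not rebuilt. Of the 9 alternatives, 1 only ended the chromosome at the last combined peak, 15279306 in place of 15279307, and could change no call. The low density on the left and the ratio of right to left kept direction and call in all 9 alternatives. The centre's ratio of 1.12 lost its call in 5 of them: 1.05 to 1.07 without either replicate, 1.03 with only peaks in both replicates, 1.07 with the better-ranked 50% of the list and 1.02 with peaks within 5000 bp counted once. The right domain's ratio, 1.18 to 1.23 without either replicate, lost its call only without replicate 2. It was 1.28 with only peaks in both replicates and 1.26 with the better-ranked 50% of the list. With a 50% reciprocal overlap, a stricter rule by construction, the share of combined peaks in both replicates was 25.7% (centre 22.6%) and in neither 48.2% (centre 52.5%), and the overlap between replicates was 67.4% of replicate 1 (centre 65.6%) and 58.1% of replicate 2. With the better-ranked 50% of each list, 27.0% were in both and 48.8% in neither (left 48.3%). The replicate lists were cut as well, which leaves fewer replicate peaks to overlap. These are not the shares of better-ranked peaks found in the full replicate lists, which are given above by rank. With only peaks in both replicates, median widths were 447 bp on II and 427, 444 and 464 bp on the left, centre and right (the cause was not tested), and the median place, counted within the list of supported peaks of all chromosomes, was 54.5% on II, 64.8% on the left, 56.5% in the centre and 39.4% on the right, against 46.4%, 45.5%, 48.7% and 42.6% within the full list; these are places in different lists. Without either replicate, median widths were 300 to 335 bp on II, 303 to 337.5 bp in the centre and 337 to 368 bp on the right, and median places 50.9% to 51.1% on II and 48.3% to 55.4% on the left. The place of the densest window moved, from 5300001–5400000 to 6750001–6850000 with the grid shifted by 50 kb, 6800001–7000000 with windows of 200 kb, 6800001–6900000 without replicate 1 and 6300001–6400000 without replicate 2 or with only peaks in both. Without either replicate the densest held 11 to 13 peaks, 14 to 19 windows were empty and the longest stretch was 280170 to 343592 bp. With only peaks in both replicates these were 8, 30 and 374993 bp, and with windows of 200 kb 0 were empty in the full list; fewer peaks or larger windows do this by construction. No paired analysis was possible because the inputs, numbered like the ChIP samples, were not analysed here, and sample groups are not compared. Depth is unknown and limits every list.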

Other observations

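Of the 15 best sites of II, 8 had a neighbour within 5000 bp, near the share among all peaks of the chromosome, of which 545 of 927 (58.8%) had one. The best, at 2525359–2526202, had one of 594 bp at a distance of 649 bp, at 2526852–2527445, with rank 978 and found in both replicates. The site at 10547740–10550394 had one of 1078 bp at a distance of 1122 bp, at 10551517–10552594, with rank 380 and also in both. Others stood alone: the site at 5543344–5544027 lay 41.8 kb from the peak on its left and 33.0 kb from that on its right.

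At the other extreme, 24 combined peaks of II were under 50 bp wide, with the narrowest, at 180438, a single base. None of the 24 was in both replicates, 18 were in neither, and their best rank was 3166.

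The q-values came in steps. On II, 308 of the 927 combined peaks shared their q-value with another, and 157 of 384 q-values of replicate 1 (40.9%) were also listed, digit for digit, on II in replicate 2.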
